A study of Mus musculus with 6 samples.

Results

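The regions described here are ATF4 ChIP-seq peaks whose center fell in a short interspersed element (SINE). They are the entries of the 4 annotated peak lists that HOMER placed in an intron or between genes and that its detailed annotation assigned to the SINE class. There were 1084 such peaks among the 17462 listed. ATF4 was immunoprecipitated from primary mouse embryonic fibroblasts (MEFs) of the 129S6/SvEvTac strain, either wild-type (WT) or lacking the kinase GCN2 (GCN2 KO), kept for 24 h in complete DMEM (+Leu) or in DMEM lacking leucine (-Leu). WT and GCN2 KO cells thus shared the strain, the antibody and the media. Each list came from 1 library of chromatin pooled over independent experiments, so conditions could not be tested against each other. For all 4 lists the control was input DNA of leucine-fed cells of the same genotype, also where the ChIP was from leucine-starved cells. The lists hold no read counts, and the depth of the libraries is therefore unknown. Where 4 values follow each other without labels, they stand for WT with leucine, WT without it, GCN2 KO with leucine and GCN2 KO without it.

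SINEs are short retrotransposons that descend from small cellular RNAs and are copied by the enzymes of LINE elements. B1 elements (the Alu family in the annotation) derive from the signal recognition particle RNA, B2, B4 and ID elements carry tRNA-derived parts, and MIR elements are old copies that many mammals share. The tRNA-derived elements and B1 carry an internal promoter for RNA polymerase III, of which the B box is one part. ATF4 is a basic leucine zipper factor whose translation rises when GCN2 phosphorylates eIF2alpha during amino acid shortage, and with C/EBP partners it binds a composite element read here as TGATGCAA.

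Stretches from 4 strong SINE peaks of leucine-starved WT cells are shown first, chosen because they share a run of letters. Of the 19 WT -Leu SINE peaks with a score of 100 or more on assembled chromosomes, 5 held these letters within 50 bp. In the following 4 peaks of the WT -Leu list, all in B4-family elements, the 8 capital letters TGATGACA lay within 20 bp of the peak center. The stretches are from mm10, 5′ to 3′ on the plus strand.
Zfp280d (chr9:72207119-72207158): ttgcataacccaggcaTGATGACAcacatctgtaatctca
Sqstm1 (chr11:50212124-50212163): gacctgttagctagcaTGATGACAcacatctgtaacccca
Paqr3 (chr5:97125691-97125730): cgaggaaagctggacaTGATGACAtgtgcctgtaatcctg
Gm17296 (chr8:126532756-126532795): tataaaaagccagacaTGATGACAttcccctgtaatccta
The next 6 stretches are SINE peaks in which the capitals mark TGATGCAA or the looser TGATGNAA, for comparison with the composite element. N4bp1 and Cers6 are read on the minus strand, as is Nupr1, and the others on the plus strand.
N4bp1 (chr8:86873360-86873399): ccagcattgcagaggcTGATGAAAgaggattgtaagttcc
Vdac3 (chr8:22589568-22589607): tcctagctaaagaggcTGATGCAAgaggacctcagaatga
Cers6 (chr2:68983727-68983766): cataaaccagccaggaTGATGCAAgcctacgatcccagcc
Dach1 (chr14:98394842-98394881): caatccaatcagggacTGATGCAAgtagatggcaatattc
Bcl6 (chr16:23969045-23969084): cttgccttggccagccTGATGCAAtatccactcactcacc
Nupr1 (chr7:126624730-126624769): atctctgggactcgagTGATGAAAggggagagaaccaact
The strongest SINE peak of all, in an intron of Mrps28, is shown over the 61 bases around its center because neither word lay within 50 bp of it.
Mrps28 (chr3:8873145-8873205): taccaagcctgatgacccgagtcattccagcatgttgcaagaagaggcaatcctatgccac

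SINE peaks were a small share of each list. The WT +Leu list held 361 of them among 4265 intron and intergenic peaks (8.46%, 95% Wilson interval 7.67 to 9.34) and the WT -Leu list 357 among 5488 (6.51%, 5.88 to 7.19). In GCN2 KO cells there were 207 among 3055 with leucine (6.78%, 5.94 to 7.72) and 159 among 2278 without it (6.98%, 6.0 to 8.10). In WT cells the share was lower without leucine by a difference of -1.96 percentage points (95% Newcombe interval -3.03 to -0.908), and in GCN2 KO cells the difference of 0.204 points had an interval that included 0 (-1.16 to 1.60). All intervals cover counting error only. The number of SINE peaks without leucine over that with leucine was 0.989 in WT (0.854 to 1.14), while the other intron and intergenic peaks had a ratio of 1.31 (1.26 to 1.37). In GCN2 KO the corresponding ratios were 0.768 (0.625 to 0.944) for SINE peaks and 0.744 (0.703 to 0.787) for the others. Thus in WT the net gain in the number of listed peaks in leucine-free medium lay outside SINEs, whereas in GCN2 KO both kinds of peak were fewer. A level number of SINE peaks in WT does not mean that the same peaks were listed. Only 7 of the 357 WT -Leu SINE peaks (1.96%) had a WT +Leu peak with its center within 300 bp. The share was also low among all WT -Leu peaks (4.85%), so few WT -Leu peaks of any kind had a WT +Leu partner. These ratios of peak numbers and a difference in depth between libraries cannot be told apart.

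The repeat labels were set against the reference genome. For every peak on chromosomes 1 to 19, X and Y, the listed GC content was that of mm10, and 3 SINE peaks lay on other contigs. The center was a soft-masked base in 31.7% to 38.8% of the SINE peaks and in 10.3% to 11.7% of the other intron and intergenic peaks. Most SINE centers were thus unmasked in the reference used here although the annotation calls them repeats. Its soft masking is not the repeat track that HOMER read, and that track was not compared. The labels therefore stay unchecked at the unmasked centers, and the reason for the mismatch was not tested.

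B4 elements were the largest family in every list. They held 183 of the 361 WT +Leu SINE peaks (50.7%, 45.6 to 55.8) and 175 of the 357 found without leucine (49.0%, 43.9 to 54.2). In GCN2 KO cells they held 105 of 207 with leucine (50.7%, 44.0 to 57.5) and 88 of 159 without it (55.3%, 47.6 to 62.9). The Alu (B1) family followed with 74, 86, 42 and 34 peaks, the B2 family with 66, 50, 35 and 21, and MIR with 31, 39, 22 and 14. ID elements held 6, 6, 3 and 1, and the Deu family, whose only subfamily here was AmnSINE1, held 1, 1, 0 and 1. The order of the 4 large families was the same in the lists, and for each of these families the intervals of the 4 lists overlapped, as the plot of family shares shows.

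**Figure D1:**
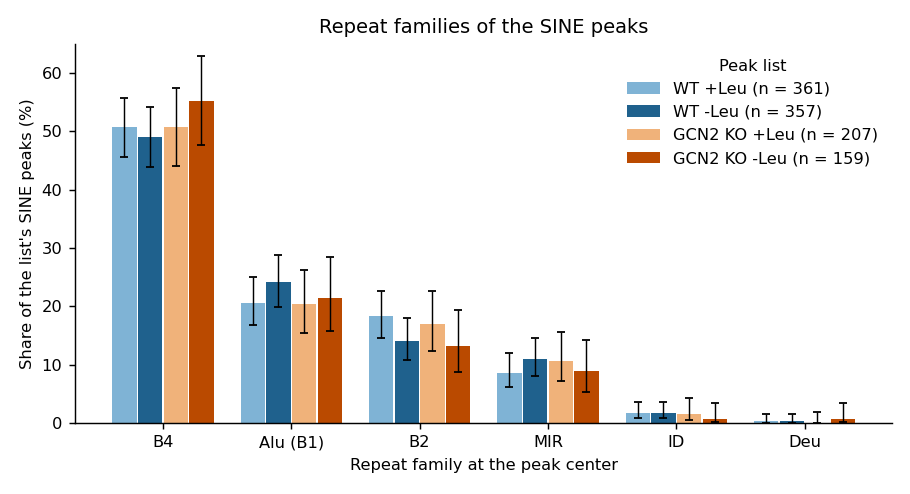
Share of each list's SINE peaks (y axis, percent) by repeat family (x axis), with 95% Wilson intervals as error bars for counting error. B4 stands at 49.0% to 55.3% in all 4 lists, and Alu, B2 and MIR follow in the same order.

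The families differed in how many subfamilies they held. Of the 551 B4 peaks over the 4 lists, 240 were B4A (43.6%), 135 B4 (24.5%), 92 ID_B1 (16.7%) and 84 RSINE1 (15.2%). B4A was also the most frequent single subfamily in each list, with 87, 73, 50 and 30 peaks. Of the 172 B2-family peaks, 167 (97.1%) were B3 or B3A, and only 5 carried a B2 name. The 236 Alu-family peaks fell into 15 subfamilies. Grouped by name, 109 (46.2%) were B1_Mm, B1_Mur or B1_Mus, 65 (27.5%) proto-B1 elements with a PB1D name and 57 (24.2%) B1F. The remaining 5 (2.12%) were named PB1 and are not counted with PB1D. The 106 MIR peaks were spread over MIRb (32), MIRc (29), MIR (24) and MIR3 (21). Proto-B1 peaks numbered 34 in WT -Leu against 14 in WT +Leu, and 7 and 10 in the GCN2 KO lists. The reads were single and 50 bases long, and how reads that match several copies of a repeat were placed is not given in the sources used here, so how far near-identical young copies could receive peaks was not tested.

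SINE peaks had a lower median GC content than the rest. It was 49.8%, 50.5%, 50.2% and 50.8% in the 4 lists, against 51.5%, 51.8%, 52.5% and 52.8% for the other intron and intergenic peaks. Among families, the B2 peaks had the lowest median of the 4 large ones (49.2%) and MIR the highest (51.5%). The median CpG content was 1.17% for MIR and lower for B4, Alu and B2.

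In position, SINE peaks were less often far from a transcription start site (TSS). Peaks beyond 50 kb of a TSS made up 32.7% and 28.6% of the SINE peaks in WT with and without leucine, and 27.5% and 25.2% in GCN2 KO. The other intron and intergenic peaks had 38.6%, 37.0%, 36.9% and 38.9% there. The differences were -5.89 points (-10.8 to -0.665), -8.46 (-13.1 to -3.39), -9.37 (-15.3 to -2.68) and -13.7 (-20.2 to -6.17), all below 0. The median distance of a SINE peak to the TSS was 26.5, 23.0, 24.1 and 22.7 kb in the same order. Introns held 203 (56.2%) and 205 (57.4%) of the WT SINE peaks with and without leucine, and 120 (58.0%) and 75 (47.2%) of those in GCN2 KO. Against the other peaks, the intron share of SINE peaks differed by 5.59 points (0.203 to 10.9) in WT +Leu, 5.02 (-0.342 to 10.2) in WT -Leu, 6.81 (-0.240 to 13.6) in GCN2 KO +Leu and -3.00 (-10.9 to 5.03) in GCN2 KO -Leu. The last 3 intervals included 0, and whether the lists differ from each other in this was not tested.

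The score of a peak is the authors' whole number, on a scale that the sources used here do not state. The lowest score in the lists was 13, and the median of the SINE peaks was 30 in all 4 lists. The quartiles were 24 and 37 in WT with leucine, 23 and 38 in WT without it, 24 and 36 in GCN2 KO with leucine and 25 and 36 in GCN2 KO without it. The lists parted in their upper ends. The highest SINE score was 127 in WT with leucine and 837 without it, and 69 and 85 in GCN2 KO, whereas the other intron and intergenic peaks reached 1409, 2628, 387 and 353.

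Scores of at least 100 belonged to 20 SINE peaks in WT -Leu, to 2 in WT +Leu and to none of the 207 and 159 in the GCN2 KO lists, which allows a share of up to 1.45% and 1.89% at 3 counts of each total (upper Wilson limits 1.82% and 2.36%). In WT -Leu these 20 were 5.60% of the SINE peaks, against 9.73% of the other intron and intergenic peaks (499 of 5131), a difference of -4.12 points (-6.24 to -1.13). Of the 20, 12 were in B4-family elements, 5 in Alu, and 1 each in B2, MIR and AmnSINE1. Few other intron and intergenic peaks reached 100 elsewhere, namely 1.61% in WT +Leu and 0.562% and 0.519% in GCN2 KO with and without leucine. The differences of SINE peaks from these were -1.06 points (-1.66 to 0.425), -0.562 (-0.911 to 1.27) and -0.519 (-0.927 to 1.85). These intervals included 0, so the absence in GCN2 KO is not particular to SINE peaks at these numbers. The scores are not normalized between libraries, so the contrast between the lists is a description.

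**Figure D2:**
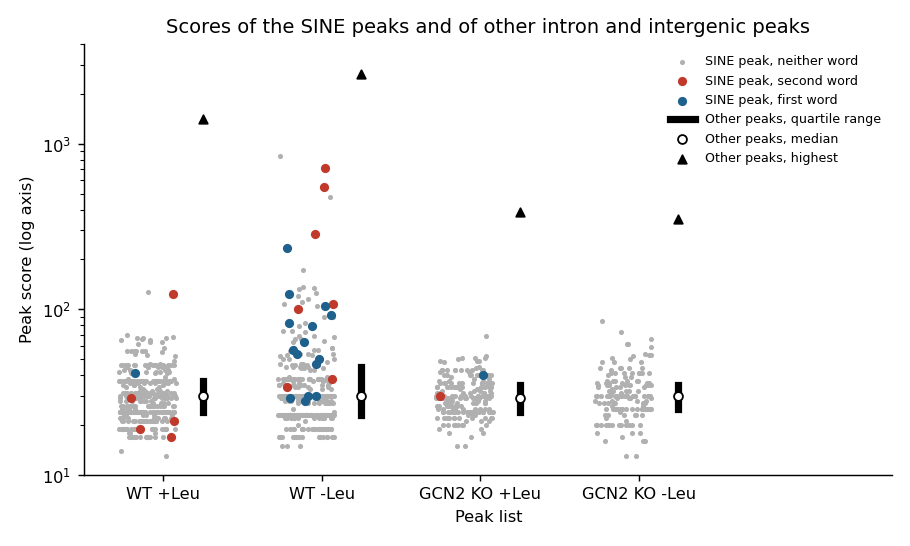
Score of every SINE peak (points, log axis) by list, beside the quartile range, median and highest score of the other intron and intergenic peaks. Blue points have TGATGNAA (first word) and red points TGATGACA (second word) within 50 bp of the center. The medians stand level at about 30 and the high scores, up to 837, are in WT -Leu.

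Ranked by score, the SINE share stayed near its mean over most of each list. The intron and intergenic peaks of each list were cut by score into 10 bins of equal size. In WT -Leu, the bin with the highest scores held 20 SINE peaks among 549 (3.64%, 2.37 to 5.56), the lowest share of the 10 bins and below the 6.51% of the whole list. The bin with scores from 29 to 30 held the most, 49 of 549 (8.93%, 6.82 to 11.6). In the other lists the interval of the highest bin included the share of the whole list, at 7.49% (5.36 to 10.4) in WT +Leu and, for GCN2 KO, 5.88% (3.75 to 9.11) with leucine and 8.77% (5.75 to 13.2) without it.

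**Figure D3:**
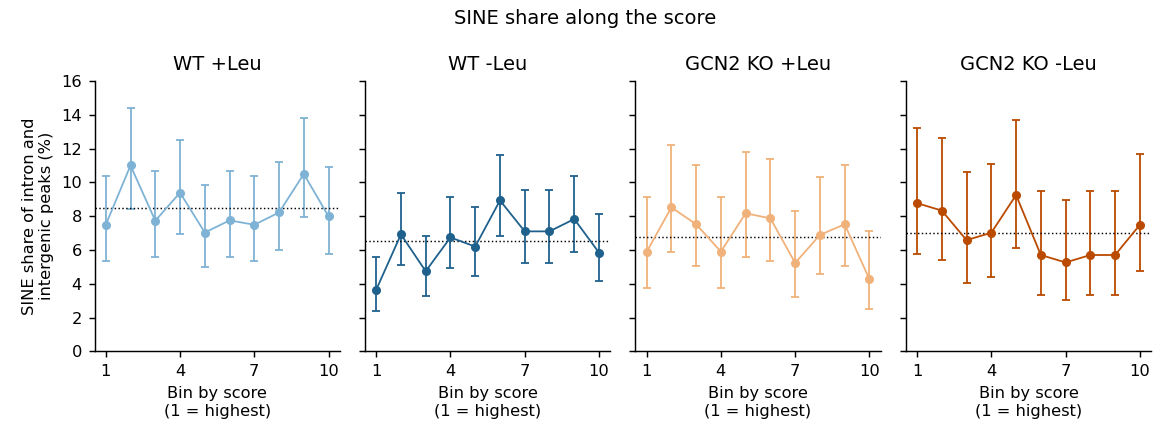
SINE share of intron and intergenic peaks (y axis, percent) in 10 bins of each list by score (x axis, bin 1 holds the highest scores), with 95% Wilson intervals, and the share of the whole list as a dotted line. In WT -Leu the highest bin stands at 3.64%, below the line at 6.51%.

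At single peaks, the strongest was in an intron of Mrps28, which encodes a protein of the small mitochondrial ribosomal subunit. This RSINE1 peak (chr3:8873025-8873325, intron 2 of 2) scored 837 in WT -Leu, rank 42 of 6374, and no other list had a peak within 300 bp. The peak in an ID_B1 element between genes, 67771 bp upstream of the TSS of Zfp280d, scored 715 in WT -Leu and 123 in WT +Leu and had no partner in the GCN2 KO lists. The third by score lay 1305 bp upstream of the TSS of Sqstm1, which encodes the autophagy receptor p62. This ID_B1 peak (chr11:50211975-50212275) scored 545 in WT -Leu and was listed in no other condition. The 3 highest in WT +Leu were Pax9 (AmnSINE1, 127), Zfp280d (123) and Glp1r (B4, 70).

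In GCN2 KO +Leu the 3 highest SINE peaks were on the unplaced contig JH584304 near Pisd-ps3 (B1_Mur4, 69), in an intron of Pitpnc1 (B3A, 52) and in the intergenic region nearest to Rps6kc1 (RSINE1, 51). In GCN2 KO -Leu they were in an intron of Ybx3 (B1F, 85), near Ptpn13 (RSINE1, 73) and in an intron of Dnajb12 (B4A, 66). Ybx3 encodes a cold-shock domain protein that binds nucleic acids, and Dnajb12 a co-chaperone of the endoplasmic reticulum membrane. None of these GCN2 KO peaks had a WT partner, and none held TGATGNAA or TGATGACA within 50 bp where the reference covered it.

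SINE peaks rarely recurred between lists. Centers no more than 300 bp apart made a pair of peaks common. Of the WT +Leu SINE peaks, 13 of 361 had a WT -Leu partner (3.60%, 2.12 to 6.06), beside 6.35% of all WT +Leu peaks and 5.87% of the other intron and intergenic ones. Of the WT -Leu SINE peaks, 7 of 357 had a WT +Leu partner (1.96%, 0.953 to 3.99), beside 4.85% of all WT -Leu peaks and 4.62% of the other intron and intergenic ones, a difference of -2.66 points (-3.84 to -0.557). Counted from the WT +Leu list, the difference from the other intron and intergenic peaks was -2.26 points, and its interval included 0 (-3.94 to 0.293). In GCN2 KO, 5 of 207 +Leu SINE peaks had a -Leu partner (2.42%, beside 2.75% of all peaks), and 3 of 159 -Leu SINE peaks had a +Leu partner (1.89%, beside 3.59% of all). Their differences from the other intron and intergenic peaks were -0.0775 points (-1.60 to 3.08) and -1.61 points (-3.12 to 1.98).

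Counted over any other list, 15 WT +Leu SINE peaks had a partner (4.16%, beside 7.48% of all peaks in that list), as had 8 in WT -Leu (2.24%, beside 6.02%), 8 in GCN2 KO +Leu (3.86%, beside 5.47%) and 5 in GCN2 KO -Leu (3.14%, beside 6.40%). Against the other intron and intergenic peaks, the difference was -2.81 points in WT +Leu (-4.64 to -0.117) and -3.59 in WT -Leu (-4.88 to -1.38), and in the GCN2 KO lists its interval included 0. Score moved with this. In WT -Leu, 2 of the 20 SINE peaks with a score of 100 or more had a partner in another list (interval 2.79% to 30.1%), against 155 of 499 other peaks of that strength (31.1%, 27.2 to 35.3). Below a score of 100, the shares were 1.78% (0.818 to 3.83) and 3.11% (2.65 to 3.65), whose intervals overlapped. In WT +Leu, both SINE peaks with a score of 100 or more had a partner, as had 62 of 63 other peaks of that strength (98.4%).

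When the peaks of the 4 lists were chained into sites, the SINE peaks lay at 1074 sites. Of these, 1048 had peaks in 1 list, 24 in 2 lists, 2 in 3 lists and none in all 4. The annotation called the peak a SINE peak in more than 1 list at 10 of the 26 recurrent sites. The label follows the center of each peak, and the centers at a site spanned up to 524 bp. Of the 15 sites with peaks in both WT lists, the score was higher without leucine at 9 and lower at 6. Of the 6 with peaks in both GCN2 KO lists, it was higher without leucine at 4 and lower at 2.

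The site near N4bp2l1 (chromosome 5) scored 102 in WT +Leu, 863 in WT -Leu and 28 in GCN2 KO +Leu. Only the last of these peaks was centered in a SINE (B3), and the 3 centers spanned 134 bp. The site in Sfi1 on chromosome 11 scored 24, 55 and 28 in the same lists, and only its WT +Leu peak was a SINE peak. Among sites in 2 lists, Zfp280d was the highest, followed by Bcl6, which encodes a transcriptional repressor of B cells, with 41 in WT +Leu and 230 in WT -Leu. At Bcl6 the WT +Leu peak was in a MIR3 element and the WT -Leu peak, 52 bp away, was not a SINE peak.

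The AmnSINE1 peak nearest to Pax9 had its center at the same base in both WT lists, with scores of 127 and 172. It lay in intron 2 of 9 of the transcript that HOMER named, 199560 bp from the TSS of Pax9. In GCN2 KO, Ybx3 had 43 with leucine and 85 without it, with centers 12 bp apart, and Pisd-ps3 had 69 and 37. In the plot of recurrent sites, every score of 100 or more is a WT score, and the GCN2 KO scores are 85 or lower.

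**Figure D4:**
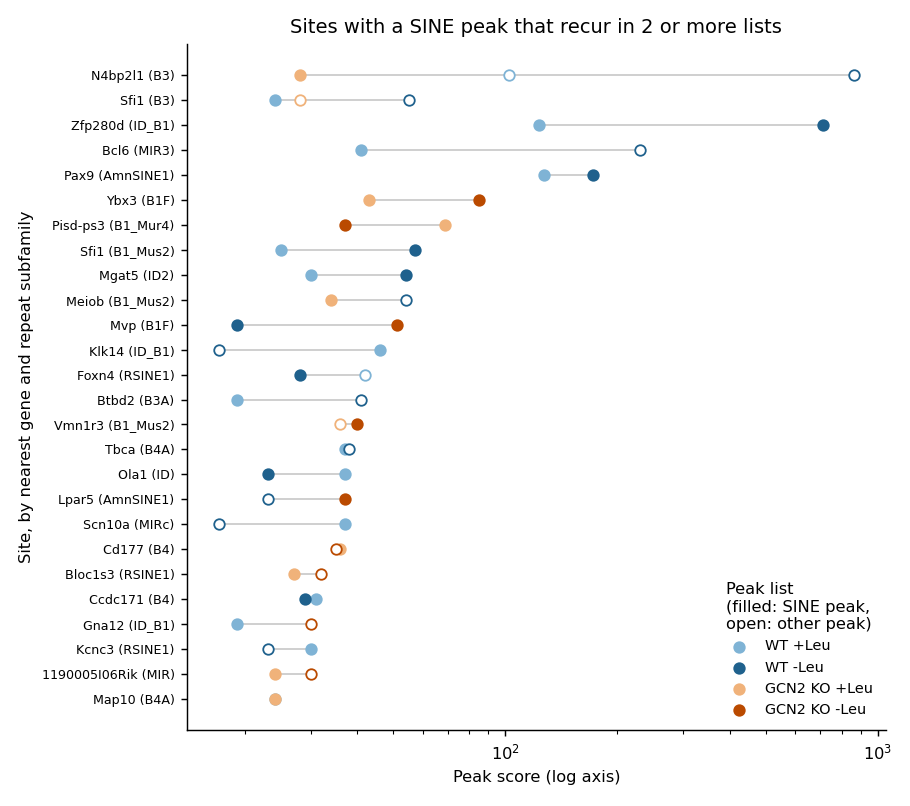
Score (log axis) in each list of the 26 sites with a SINE peak that recurred in 2 or more lists, named by nearest gene and repeat subfamily. Filled points are SINE peaks and open points are peaks at the same site that the annotation did not place in a SINE. At Map10 the WT +Leu and GCN2 KO +Leu points coincide at 24.

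The composite element TGATGCAA was scarce at SINE peaks. On assembled chromosomes and either strand, it lay within 50 bp of the center in 1 of 361 WT +Leu SINE peaks (0.277%, 0.0489 to 1.55) and in 7 of 356 WT -Leu SINE peaks (1.97%, 0.956 to 4.0). It was in 0 of 206 GCN2 KO +Leu peaks, which allows a share of up to 1.46% at 3 counts (upper Wilson limit 1.83%), and in 0 of 158 GCN2 KO -Leu peaks, which allows up to 1.90% (upper Wilson limit 2.37%). The other intron and intergenic peaks held it in 2.77%, 7.28%, 0.880% and 1.14% of windows in that order. The difference was -2.50 points in WT +Leu (-3.10 to -1.14) and -5.31 points in WT -Leu (-6.57 to -3.17). In the GCN2 KO lists a difference was not detectable at these numbers.

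In windows 1 kb to either side of the SINE peaks, TGATGCAA was present in 0.140% of the 712 windows for WT -Leu and 0.554% of the 722 for WT +Leu. The WT -Leu SINE peaks thus held it more often than their surroundings (1.83 points, 0.624 to 3.87), while the WT +Leu SINE peaks did not beyond counting error (-0.277 points, -1.17 to 1.04). By score, TGATGCAA was in 2 of 19 WT -Leu SINE peaks of 100 or more (10.5%, 2.94 to 31.4) against 194 of 497 other peaks of that strength (39.0%, 34.8 to 43.4). Below 100 it was in 1.48% of SINE peaks (0.635 to 3.43) and 3.87% of the others (3.35 to 4.46).

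With any base at the sixth position (TGATGNAA, which includes TGATGCAA), the counts were 1, 15, 1 and 0 SINE peaks in the 4 lists. The WT -Leu share was 4.21% (2.57 to 6.83), against 11.5% of other peaks and 0.983% of the neighboring windows. The 17 occurrences read TGATGCAA 8 times, TGATGAAA 7 times and TGATGGAA 2 times. In WT -Leu these peaks had scores from 28 to 233 with a median of 57.0, and 8 of the 15 occurrences were centered within 20 bp of the peak center. They were spread over 7 B4, 4 Alu and 3 MIR peaks and an ID peak, with none among the 50 B2 peaks.

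The highest SINE peaks with TGATGCAA itself in WT -Leu were Vdac3 (PB1D11, intron 1 of 8, score 124), which encodes an anion channel of the outer mitochondrial membrane, Cers6 (ID_B1, intron 3 of 9, score 104), which encodes a ceramide synthase, and Dach1 (PB1D11, intergenic, score 92). In Vdac3 and Cers6 the element was centered -15 and 4 bp from the peak center. None of these 3 had a partner in another list. In WT +Leu, Bcl6 was the one SINE peak with the element, 45 bp from its center.

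A second word was chosen after the sequences of the strongest peaks had been seen, and its counts are a description. TGATGACA, which cannot match TGATGNAA at the same position, lay within 50 bp of the center of 7 WT -Leu SINE peaks (1.97%, 0.956 to 4.0), 5 in WT +Leu and, in GCN2 KO, 1 with leucine and 0 without it. In WT -Leu it was in 0.859% of the other intron and intergenic peaks and 0.140% of the neighboring windows. It was in 5 of the 19 SINE peaks with a score of 100 or more on assembled chromosomes, the 4 printed above among them, and in 2 of the 337 below 100. The scores of the printed peaks were 715 at Zfp280d, 545 at Sqstm1, 286 at Paqr3 and 101 at Gm17296. Among the other intron and intergenic peaks of 100 or more in WT -Leu, 14 of 497 held it (2.82%, 1.69 to 4.67). All words of 8 bases were also counted in the 41 bases around the center. CATGATGA was the most frequent among these 19 peaks, with 5, and was in none of the 337. It overlaps TGATGACA, and the 5 peaks are the same ones that held TGATGACA. As the word was picked from these 19 peaks, its contrast with the 337 follows in part from that choice and is no separate result.

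The 4 printed stretches also share letters after the word, in the form TGATGNNNNNNNNNTGTAA, a spacing of 9 bases between TGATG and TGTAA. Over the whole 301-base window, this pattern was in 10 of 356 WT -Leu SINE peaks (2.81%, 1.53 to 5.09), 1 of 361 in WT +Leu and, in GCN2 KO, 0 of 206 with leucine and 1 of 158 without it. It was in 0.254% of the other WT -Leu intron and intergenic peaks (0.148 to 0.434) and in 0.140% of the windows beside the SINE peaks. Of the 19 SINE peaks of 100 or more, 6 held it (31.6%, 15.4 to 54.0), namely the 5 with TGATGACA and N4bp1 (B4A, score 233).

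The pattern was read from the printed peaks, already chosen for a high score and for TGATGACA, and these are counted among the WT -Leu SINE peaks with it. Its share among all WT -Leu SINE peaks and among the strong ones therefore follows in part from that choice. The same holds for its contrast with the other peaks, the neighboring windows and the other lists. Most of the peaks with it are in B4-family elements, and the numbers are small. Paqr3 encodes a Golgi membrane protein, and no shared function of the genes at these sites was looked for.

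**Figure D5:**
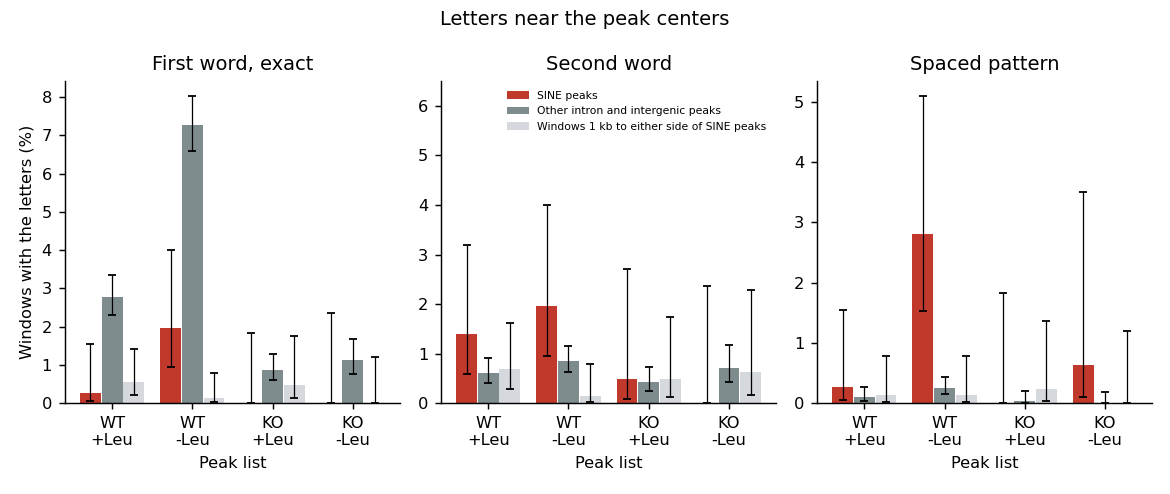
Share of windows (y axis, percent) with TGATGCAA within 50 bp of the center (left), TGATGACA within 50 bp (middle) and the spaced pattern TGATGNNNNNNNNNTGTAA within 150 bp (right), for SINE peaks, other intron and intergenic peaks and windows 1 kb from the SINE peaks, with 95% Wilson intervals. The y scales differ between the panels. TGATGCAA is at 7.28% in other WT -Leu peaks against 1.97% in SINE peaks, and the spaced pattern at 0.254% against 2.81%. TGATGACA and the spaced pattern were chosen from strong SINE peaks already seen and counted here, so their shares follow in part from that choice.

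Other letters set SINE peaks apart less, or by their repeat. TGACGTCA, the full cAMP response element, was in none of the 1081 SINE peaks on assembled chromosomes and in 0.0859% of the others. TGANTCA, a loose form of the AP-1 element with any middle base, was in 3.70% of SINE peaks (2.73 to 5.0). The others held it in 3.35% (3.06 to 3.66). By family TGANTCA was most frequent in MIR, with 10 of 106 (9.43%, 5.21 to 16.5). The B box core GTTCNANNC, searched over the whole window, was in 21.3%, 23.3%, 26.7% and 27.8% of the SINE peaks of the 4 lists, against 10% to 10.9% of the others, and each interval of the difference lay above 0. Over the 4 lists it was in 38.6% of Alu, 21.1% of B4, 19.8% of B2 and 11.3% of MIR peaks. The windows 1 kb away held it in 14.4% to 18.7% of cases.

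Few words were shared by a whole family. With each site counted once, the most frequent word of 12 bases in the Alu windows was GAGGCAGAGGCA, in 37 of 229 (16.2%) against 0.488% of other peaks. In B2 it was CTGAGCCATCTC, in 28 of 172 (16.3%) against 0.333%. In B4 it was the simple repeat CACACACACACA, in 47 of 547 (8.59%) against 2.33%. This repeat is not particular to B4, as it was also in 18 of the 172 B2 windows (10.5%). In MIR no word was in more than 4 of 106 windows. Long identical runs were thus rare at these peaks.

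The shares of SINE peaks within 5 kb of a TSS were 11.1%, 11.2%, 10.6% and 16.4%. Those of the other intron and intergenic peaks were 12.7%, 13.4%, 12.3% and 11.1%. The differences were -1.60 points (-4.63 to 2.19), -2.15 (-5.17 to 1.66), -1.63 (-5.35 to 3.45) and 5.26 (0.124 to 11.9). Only the GCN2 KO -Leu interval left out 0. A SINE peak within 5 kb of the TSS was listed for 40, 40, 22 and 26 genes in the 4 lists, together 126 gene names, beside 776, 1111, 577 and 413 genes with any peak there. Homer3 was the only gene named in both WT lists, with centers too far apart to be a common peak, and Mvp the only one named in WT -Leu and GCN2 KO -Leu. No gene was shared by any other pair of lists. Both were named after their values were seen.

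Of 26 genes of the integrated stress response, 3 had a SINE peak within 5 kb in WT -Leu, where 19 had a peak of any kind. These were Sqstm1, Hspa5 and Nupr1. None of the 26 had one in WT +Leu, GCN2 KO +Leu or GCN2 KO -Leu, where 16, 11 and 5 had a peak of any kind. Of the lists for amino acid synthesis (26 genes), amino acid transport (22), aminoacyl-tRNA synthetases (38) and mTORC1 control (35), no gene had a SINE peak within 5 kb in any list, although 14, 7, 14 and 4 had a peak of any kind there in WT -Leu. These lists came from textbook knowledge.

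The B1_Mur2 peak 1940 bp upstream of the TSS of Hspa5, which encodes the endoplasmic reticulum chaperone BiP, scored 135 in WT -Leu and had no partner elsewhere. It held no TGATGNAA within 50 bp of the center, but 2 copies of TGATGCAA lay farther out, centered 62 and 125 bp from it. They are shown in capitals in the plus strand of mm10.
Hspa5 (chr2:34770197-34770291): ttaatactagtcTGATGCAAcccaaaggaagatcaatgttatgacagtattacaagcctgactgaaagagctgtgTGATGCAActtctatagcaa
The AmnSINE1 peak nearest to Pax9 likewise held TGATGCAA just outside the 50 bp, centered -51 bp from the peak center.
Pax9 (chr12:56895133-56895164): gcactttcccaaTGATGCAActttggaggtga
The RSINE1 peak of Nupr1, a small stress-induced chromatin protein, lay 746 bp from the TSS and scored 28, with TGATGAAA centered 25 bp from the peak center. At longer range, SINE peaks of low score lay nearest to Fgf21 (GCN2 KO -Leu, 5305 bp, score 34), the stress hormone, and to Mthfd2 (WT +Leu, 25949 bp, score 46), a mitochondrial one-carbon enzyme. These last 2 were named after their values were seen.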

How the data were processed

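ATF4 ChIP-seq of WT and GCN2 KO MEFs with and without leucine was used as the 4 annotated peak lists. The authors trimmed the reads, aligned them to mm10 with BWA 0.7.12, called peaks with MACS2 2.1.0 against input DNA of the same genotype, kept the summit ±150 bp and annotated it with HOMER 4.7. The authors deposited a score per peak, which is not normalized between libraries, and its GC and CpG content, each a fraction of the bases and printed here as percent. The annotation follows the peak center, so a window can hold a SINE without being counted. Placement of reads in repeats can change which copies are listed.

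The members and gene lists were chosen with earlier results of these data known. Peaks were common at 300 bp or less between centers. Letters were searched on both strands of GRCm38, the assembly that mm10 names. Shares carry 95% Wilson intervals and differences of shares Newcombe intervals, for counting error only. Named peaks were the 3 highest scores per list, sites in 3 or more lists, the 5 highest sites in 2 lists, the 3 highest with TGATGCAA per list and those within 5 kb of a listed gene. Paqr3, N4bp1 and Gm17296 were named after their values were seen. Python 3.11.15, pandas 2.3.3, statsmodels 0.14.6 and pysam 0.24.0 were used, and the counting steps were tested on simulated data. The 2 input libraries were not analysed here, and 1 peak counted among those with TGATGACA is not reported here by name. Alternatives were score limits, equal list lengths, other distances, windows and letters.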

Additional observations from a re-analysis of the deposited data

Results flagged for a closer look

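For some measures, the value without leucine over that with leucine moved in opposite directions in the 2 genotypes. Each direction rests on 1 library per condition, and the difference between genotypes was not tested. The number of Alu-family SINE peaks had a ratio of 1.16 in WT (0.853 to 1.58) and 0.810 in GCN2 KO (0.517 to 1.27), and that of MIR peaks 1.26 in WT (0.788 to 2.01) and 0.636 in GCN2 KO (0.330 to 1.23). All 4 intervals, which cover counting error only, included 1. The SINE share of intron and intergenic peaks had a ratio of 0.769 in WT and 1.03 in GCN2 KO.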

How the results depend on the processing

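Of 140 recomputed values, 104 stayed within 1.5 times of the reported count or inside the counting interval of the reported share or median. A score of 30 or more left 182, 195, 105 and 91 SINE peaks in the 4 lists, and moved the B4 and Alu shares in GCN2 KO +Leu to 43.8% and 26.7% and the MIR share in GCN2 KO -Leu to 4.40%. Among the 2672 strongest peaks of each list, SINE peaks numbered 198 in WT +Leu and 126 in WT -Leu, their share in WT -Leu was 5.52%, their median scores were 37.0 in WT +Leu, 46.0 in WT -Leu and 31.0 in GCN2 KO +Leu, and TGATGCAA was in 4.80% of them in WT -Leu. Of all peaks, SINE peaks were 7.44%, 5.60%, 5.80% and 5.95%. The detailed annotation gave no peak outside introns and intergenic regions the SINE label. Whether such peaks overlap a SINE cannot be read from that. Of intergenic peaks alone, they were 7.58% in WT +Leu, 5.86% in WT -Leu and 5.89% in GCN2 KO +Leu. The recurrent share fell to 1.66% in WT and 0.966% in GCN2 KO when the partner had to be a SINE peak, to 0.966% in GCN2 KO at 100 bp, and to 1.96% in WT counted from the -Leu list. TGATGNAA gave 4.21% in WT -Leu, and TGATGCAA in soft-masked bases 0% in both WT lists. Genes within 1 kb numbered 0, 4, 4 and 3, and within 10 kb 90, 91, 44 and 44. The wider and narrower limits move these counts by their construction, and for the other changes the cause was not tested.

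No paired analysis was possible because each condition had 1 library. The lists hold no read counts, so depth could not be set beside the numbers of peaks, and scores set side by side between lists are descriptions, since they are not normalized between libraries. The labels of repeats are HOMER's and depend on the peak center.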
